A study of Mus musculus with 16 samples.

Results

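The NADPH oxidase 2 complex was followed through 5 of its genes, Cybb, Cyba, Ncf1, Ncf4 and Rac2, which were chosen by name and were all found among the 18576 genes of the series. NADPH oxidase 2 is the enzyme of the phagocyte oxidative burst. Its membrane core is a heterodimer of the catalytic subunit gp91phox (Cybb) and its stabilizing partner p22phox (Cyba), and the core becomes active when cytosolic subunits, among them p47phox (Ncf1) and p40phox (Ncf4), and a Rac GTPase join it. The assembled enzyme passes electrons from NADPH to oxygen and makes superoxide. Neutrophils, monocytes and macrophages are known for its use, and in microglia it is a well-studied source of reactive oxygen in models of Parkinson's disease. Loss of Cybb, Cyba, Ncf1 or Ncf4 causes chronic granulomatous disease.

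The libraries came from the brains of adult male and female WT (C57BL/6N) and CD163KO (Cd163tm1.1(KOMP)Vlcg) mice, 2 months after murine α-syn was injected into both striata. Mice received α-syn MONO, the monomeric protein, which served as control, or α-syn PFF, the pre-formed fibrils, so that no library came from uninjected brain. Macrophages were sorted by high CD45 and by CD11b, a gate that per the methods holds NK cells and neutrophils beside macrophages of the brain borders and those that infiltrated, and microglia were sorted by CD11b and low or intermediate CD45. Each of the 8 conditions (sex, genotype and treatment) gave 1 library per population, 16 in all. The study excluded CD163KO males given MONO, so these 2 libraries enter the levels and not the tests, which rest on 14 libraries. Whether a library is 1 of the triplicates that were sequenced or their pooled reads, and which of the 2 batches of mice it came from, is not given in the sources used here. The methods also describe a correction for batch and the removal of outlier samples from both populations, and whether the libraries analysed here include those samples is not given either, so no batch term was fitted.

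The libraries held between 8648751 and 21433841 estimated counts. Those of male WT PFF and male CD163KO MONO stood apart from the others of their population, in macrophages by correlation and by TMM factor and in microglia mainly by TMM factor. In macrophages, their median correlation with the other 7 libraries (Pearson's r of log2(FPKM + 1) across genes) was 0.803 and 0.857, against 0.943 to 0.953 for the remaining 6. TMM factors, which scale a library to the bulk of its genes, were 1.45 for both and 0.381 to 0.955 for the remaining macrophage libraries. In microglia the TMM factors were 0.461 and 0.853 for these conditions and 1.65 to 1.80 for the others, while the median correlations were 0.913 and 0.940, the second of them within the 0.934 to 0.957 of the others. The microglia library labelled female CD163KO MONO held 799 estimated counts of Y-linked genes, where the other 7 libraries labelled female held at most 2, and Cd163 did not separate the genotypes in microglia, with 5 to 23 counts in CD163KO libraries and 0 to 101 in WT. The 8 microglia markers summed to 14314 to 41435 FPKM in microglia and 868 to 1610 in macrophages, and the 8 markers of border-associated macrophages to 27.2 to 156 and 1484 to 4196. The 12 neutrophil markers summed to 22182 to 134672 FPKM in macrophages and 1057 to 2876 in microglia, so that the macrophage libraries are those of a mixed gate. Markers of NK, T and B cells summed to 22.5 to 71.6 FPKM in macrophages and at most 1.21 in microglia, and those of choroid plexus and pituitary to 101 to 12625 and 264 to 2517. In such bulk samples fewer cells of a type and less RNA per cell cannot be told apart.

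In mm10 (GRCm38.p6, RefSeq annotation), Cybb spans chromosome X from 9435252 to 9487766, Cyba chromosome 8 from 122424771 to 122432940 and Ncf1 chromosome 5 from 134220053 to 134229628. Ncf4 (78244164 to 78262582) and Rac2 (78559169 to 78572783) both lie on chromosome 15. RefSeq promoter entries were matched for 3 of the 5 genes. The 180 bases before their annotated starts are shown because, in FPKM as deposited, Cybb and Ncf1 had opposite orders in the 2 populations while Cyba had about the same level in both. All 3 windows are on the minus strand, at chrX:9469325-9469504 for Cybb (a start within the span of the gene), chr8:122432941-122433120 for Cyba and chr5:134229626-134229805 for Ncf1. Capitals mark GGAA, the core letters bound by ETS factors such as PU.1, and GAAANNGAAA, a repeat of the kind bound by IRF factors, on either strand, and the 2 may overlap.
Cybb: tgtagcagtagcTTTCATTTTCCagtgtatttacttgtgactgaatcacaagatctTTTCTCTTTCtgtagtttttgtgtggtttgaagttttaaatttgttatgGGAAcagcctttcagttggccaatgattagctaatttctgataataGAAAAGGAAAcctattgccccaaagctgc
Cyba: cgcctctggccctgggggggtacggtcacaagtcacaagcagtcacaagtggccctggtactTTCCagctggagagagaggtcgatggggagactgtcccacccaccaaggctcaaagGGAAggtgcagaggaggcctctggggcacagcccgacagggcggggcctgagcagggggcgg
Ncf1: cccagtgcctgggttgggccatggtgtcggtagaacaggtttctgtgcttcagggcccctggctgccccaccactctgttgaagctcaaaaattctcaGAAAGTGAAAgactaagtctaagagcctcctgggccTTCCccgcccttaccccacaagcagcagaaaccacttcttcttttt
The Cybb window held 3 matches to GGAA and 3 to GAAANNGAAA, the Cyba window 2 and 0, and the Ncf1 window 1 and 1. GGAA is found in the 250 bases upstream of 93.4% of 32851 RefSeq promoter entries and GAAANNGAAA in 3.0%. The longer GGAANNGAAA, in which both cores are joined, was found in 2.7% of the 300-base entries and, among these 3 genes, in Cybb alone, as TTTCATTTCC at bases 4 to 13 after the start on the opposite strand. CCAAT was found once in the Cybb window and GGGCGG in 2 places in that of Cyba and once in that of Ncf1, and these are found upstream of 33.8% and 32.7% of entries. TATAAA, found upstream of 12.4% of entries, matched in none of the 3 genes. A match is a string of letters, and no binding was measured.

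Cybb, the catalytic subunit, separated the populations. In macrophages it stood at 58.2 FPKM in female WT PFF, 62.0 in female CD163KO MONO, 92.7 in female CD163KO PFF, 103 in female WT MONO, 104 in male CD163KO PFF, 116 in male WT MONO, 361 in male WT PFF and 369.9 in male CD163KO MONO. In microglia it stood at 0.29 FPKM in male CD163KO MONO, 0.54 in male WT PFF, 1.96 in female CD163KO PFF, 3.27 in female WT MONO, 6.29 in male WT MONO, 6.37 in male CD163KO PFF, 6.43 in female CD163KO MONO and 7.82 in female WT PFF. These microglia values rest on 25 to 592 estimated counts. The lowest macrophage library was therefore above the highest microglia library, and the 2 conditions that stood apart gave the highest Cybb in macrophages and the lowest in microglia. As deposited, Cybb was the only one of the 5 genes whose FPKM ranges did not overlap between populations, which held for 7.55% of the 9074 genes that reached 1 FPKM in 8 libraries or more. With FPKM divided by TMM factors the ranges of Ncf4 (116 to 245 in macrophages and 50.9 to 94.7 in microglia) and Rac2 (115 to 212 and 14.1 to 41.9) did not overlap either, on a scale where this held for 1270 of the 9074 genes.

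Cyba, the partner that holds gp91phox in the membrane, was the most abundant of the 5 per length in all 16 libraries. It ranged from 1929 to 3847 FPKM in macrophages (median 2352) and from 1733 to 3115 in microglia (median 2254), and the ranges overlapped over most of their length. With FPKM divided by TMM factors its medians were 3570 and 1320, and the ranges again overlapped. Its 2 RefSeq transcripts were summed. Cyba made up 71.2% to 92.1% of the summed FPKM of the 5 genes in macrophages and 83.0% to 95.3% in microglia.

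Ncf1, the organizer that carries the cytosolic subunits to the membrane, lay the other way. It ranged from 13.03 to 152 FPKM in macrophages (median 35.9) and from 55.9 to 196 in microglia (median 164). The 6 macrophage libraries other than male WT PFF and male CD163KO MONO were at 47.2 or below, under all 8 microglia libraries. As deposited, these 2 conditions held the highest macrophage values, 152 and 114, and the lowest microglia values, 55.9 and 86.4. On the TMM scale they were again highest in macrophages (105 and 78.7), but in microglia male WT PFF was the highest library (121) and male CD163KO MONO was at 101.

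Ncf4, which binds phosphatidylinositol 3-phosphate on phagosomes, was at nearly the same level in both populations as deposited, at 48.1 to 355 FPKM in macrophages (median 106) and 38.9 to 132 in microglia (median 103). Rac2, the GTPase of the complex in neutrophils, was at 45.3 to 217 FPKM in macrophages (median 128.3) and 14.8 to 68.9 in microglia (median 47.5). Its ranges overlapped through female WT PFF macrophages alone, the only macrophage library below the highest microglia library. The counts of Rac2 were not whole in any of the 16 libraries (tolerance 0.015), so reads were divided between it and other transcripts, and its values are less certain. Those of the other 4 genes were whole in every library after their transcripts were summed.

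The order of the genes within a library was fixed in microglia and looser in macrophages. Cyba, Ncf1, Ncf4, Rac2 and Cybb followed each other from high to low in 8 of 8 microglia libraries. In macrophages Cyba was first and Ncf1 last in 8 of 8 libraries, and Cybb, Ncf4 and Rac2 changed places between them, at medians of 103, 106 and 128.3 FPKM that differed by less than their spread. Cybb made up 1.95% to 11.3% of the summed FPKM of the 5 genes in macrophages and 0.01% to 0.38% in microglia.

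**Figure D1:**
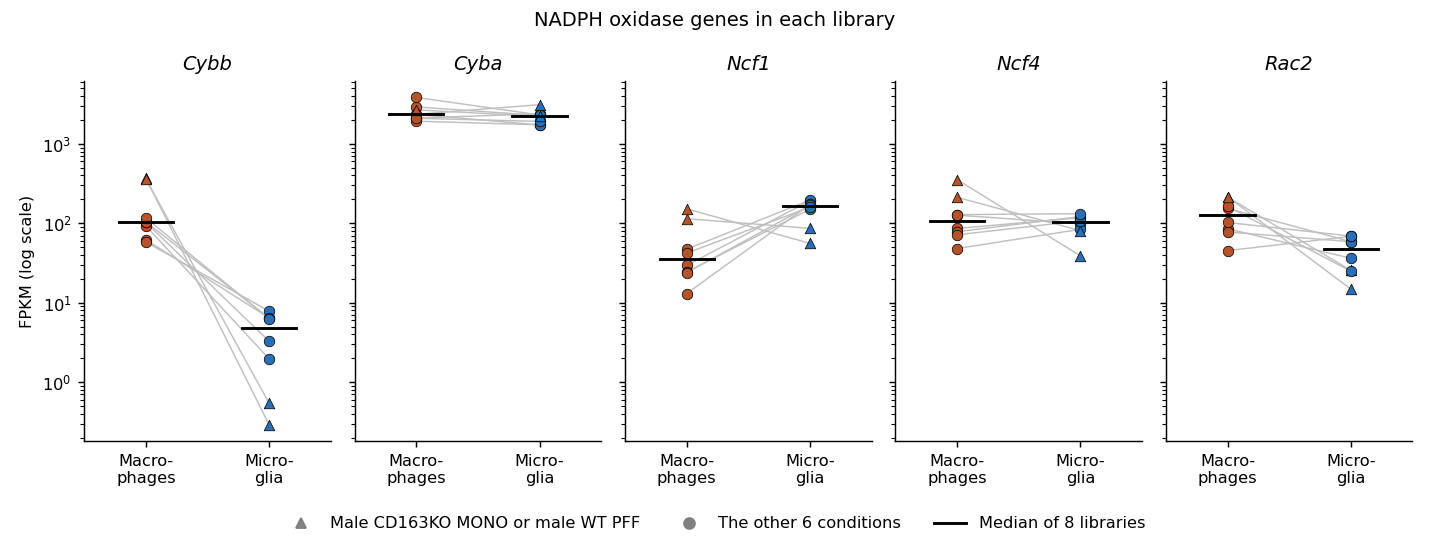
FPKM (log axis) of the 5 genes in the 8 macrophage and 8 microglia libraries, with lines that join the 2 libraries of a condition, bars at the medians and triangles for the 2 conditions that stood apart. On this scale Cybb is the only gene whose ranges do not overlap, at 58.2 to 369.9 FPKM in macrophages and 0.29 to 7.82 in microglia.

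Ratios of 2 genes within a library need no scaling between libraries, and they were compared between the populations by sign flips of the 7 within-condition differences, an exact test whose smallest two-sided p is 0.0156. These ratios were chosen after the data had been seen. All 10 pairs of genes were compared, and 8 had an unadjusted exact p under 0.05. These pairs share 5 genes and are not separate results, and no share over ratios of other genes is given here. The same sign flips of single genes, on log2(FPKM + 1), gave an unadjusted exact p under 0.05 for 52.2% of 9074 genes. The FPKM of Cybb divided by that of Ncf1 was 2.10 to 4.47 in macrophages (median 2.76) and 0.00967 to 0.0451 in microglia (median 0.0334), a mean log2 difference of 6.96 ± 0.843 (SD, n = 7 pairs, exact permutation p = 0.0156, higher in 7 of 7). The FPKM of Cybb divided by that of Cyba, its partner in the membrane core, was 0.0212 to 0.135 in macrophages and 0.000243 to 0.00449 in microglia, a mean log2 difference of 4.63 ± 2.23 (SD, n = 7 pairs, exact permutation p = 0.0156). The ranges given here for ratios are those of the 7 libraries tested per population. With CD163KO males given MONO added, Cybb over Cyba reached 0.157 in macrophages and 9.3e-05 in microglia, and Cybb over Ncf1 reached 0.00336 in microglia. With or without these libraries, the ranges did not overlap for Cybb against any of the other 4 genes. Among the cytosolic subunits, Ncf1 divided by Ncf4 was 0.271 to 0.429 in macrophages and 1.20 to 2.07 in microglia, without overlap, and lower in macrophages in 7 of 7 pairs (mean log2 difference -2.21 ± 0.397, exact permutation p = 0.0156). Ncf1 divided by Rac2 did not overlap either, at 0.234 to 0.702 and 2.44 to 6.38. Cyba against Ncf4 (exact permutation p = 0.891, mean log2 difference 0.12 ± 1.37, n = 7 pairs) and Cyba against Rac2 (exact permutation p = 0.0625, -1.10 ± 1.37, n = 7 pairs) were the pairs that did not pass.

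**Figure D2:**
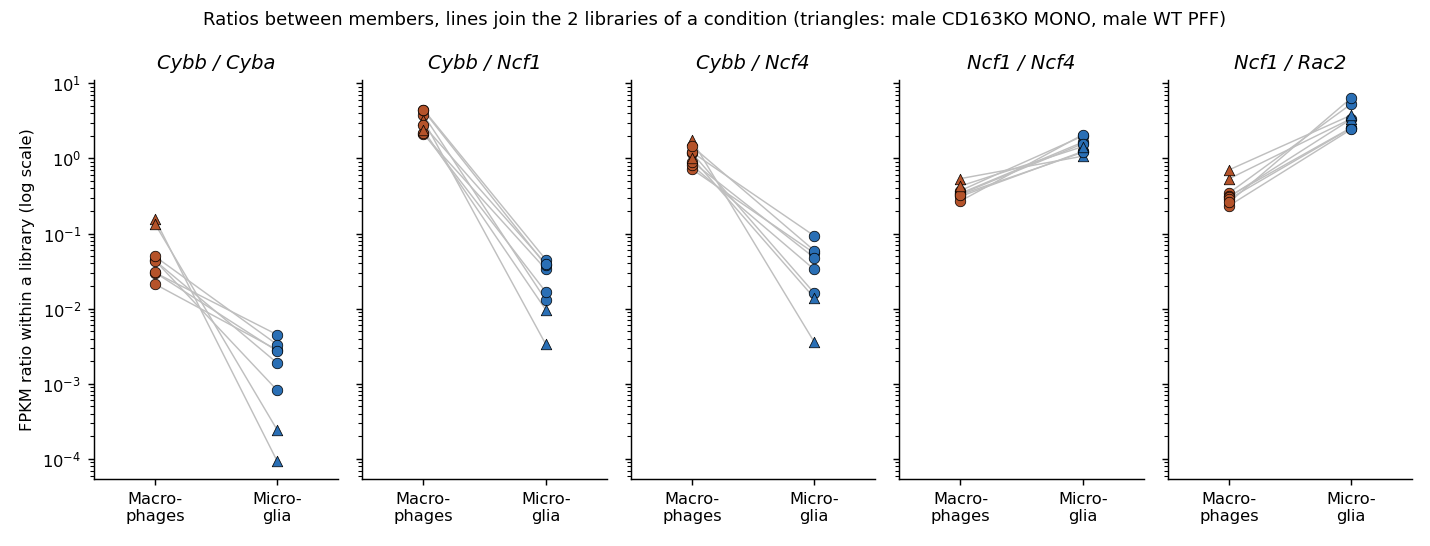
FPKM of 1 gene divided by that of another within each library (log axis), for 5 of the 10 pairs in 8 macrophage and 8 microglia libraries, with lines that join the 2 libraries of a condition. The 3 ratios with Cybb fall from macrophages to microglia in every condition and the 2 ratios of Ncf1 to Ncf4 and Rac2 rise in every condition.

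Across all genes, edgeR's quasi-likelihood test with TMM scaling and the condition as a block called 2499 of 13700 genes different between macrophages and microglia at a Benjamini-Hochberg adjusted p of at most 0.05 (18.2%), 1590 of them higher in macrophages (11.6%) and 909 lower (6.64%). All 5 oxidase genes were called, 4 of them higher in macrophages and Ncf1 lower. Cybb was higher by 6.27 on the log2 scale (SE 0.394, 95% interval 5.41 to 7.13, adjusted p = 1.85e-06). It had the 27th smallest p and the 558th largest absolute log2 difference of the 13700 genes. Rac2 was higher by 2.75 (SE 0.284, 95% interval 2.13 to 3.37, adjusted p = 4.97e-05) and Ncf4 by 1.53 (SE 0.203, 95% interval 1.09 to 1.98, adjusted p = 0.000278). Cyba was higher by 1.76 (SE 0.474, 95% interval 0.73 to 2.80, adjusted p = 0.0231) and Ncf1 differed by -0.67 (SE 0.197, 95% interval -1.10 to -0.24, adjusted p = 0.0351).

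The size of these differences depended on the scaling. The median of all genes was -0.37 with TMM and -1.96 when libraries were scaled to their totals alone, and with totals alone Cyba differed by 0.27 (adjusted p = 0.472) and Ncf4 by 0.03 (adjusted p = 0.961), while Cybb (4.64), Rac2 (1.32) and Ncf1 (-2.21) were called. Relative to the median of all genes, TMM and totals gave nearly the same values, 6.64 with TMM and 6.60 with totals for Cybb, 3.12 and 3.28 for Rac2, 2.14 and 2.23 for Cyba, 1.91 and 1.99 for Ncf4 and -0.30 and -0.25 for Ncf1. A change of scaling moves all genes nearly alike, so this likeness follows from the subtraction. It does not decide whether Cyba or Ncf4 differ between the populations. Over all 17 settings run, limma on log2 FPKM included, the relative values spread further, from 5.50 to 7.04 for Cybb, 2.40 to 3.32 for Rac2, 1.32 to 2.35 for Cyba, 1.20 to 2.11 for Ncf4 and -0.97 to -0.10 for Ncf1. Without the library pairs of any 1 condition other than male WT PFF, the calls of Cyba and Ncf1 were lost, at adjusted p of 0.0577 to 0.0781 and 0.0583 to 0.116. Without male WT PFF, and also without both it and female CD163KO MONO, a choice made after the data had been seen, all 5 were called. The sign flips of the single genes, on log2(FPKM + 1) as deposited, gave an unadjusted exact p under 0.05 for 52.2% of the 9074 genes, and among the 5 for Cybb (mean difference 4.45 ± 1.70, SD, n = 7 pairs, p = 0.0156, higher in 7 of 7) and Ncf1 (-2.02 ± 1.62, n = 7 pairs, exact p = 0.0312, lower in 6 of 7).

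**Figure D3:**
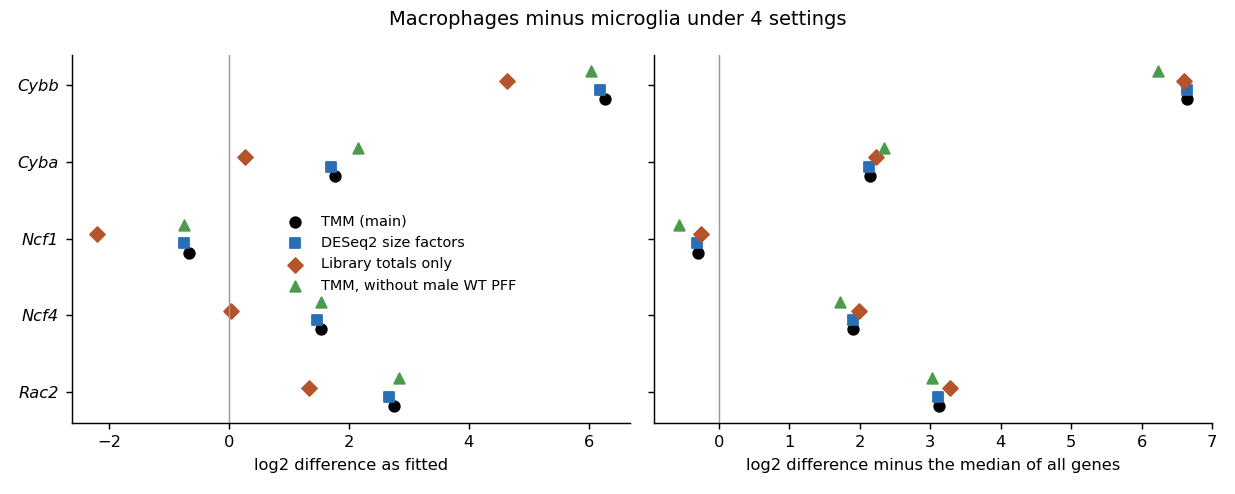
The log2 difference between macrophages and microglia for each gene under 4 settings (TMM, DESeq2 size factors, library totals, and TMM without male WT PFF, by symbol), as fitted (left) and after the median of all genes is subtracted (right). As fitted, Cyba runs from 0.27 with library totals through 1.76 with TMM to 2.16 with TMM without male WT PFF, and relative to the median of all genes the 4 values of Cybb lie between 6.22 and 6.64 and those of Cyba between 2.14 and 2.35. The subtraction removes the shift that a change of scaling gives to all genes alike.

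The macrophage gate and its carry-over were set beside microglial Cybb. As a percent of the macrophage library of the same condition, Cybb in microglia was 13.4% in female WT PFF, 10.4% in female CD163KO MONO, 6.12% in male CD163KO PFF, 5.40% in male WT MONO, 3.19% in female WT MONO, 2.12% in female CD163KO PFF, 0.15% in male WT PFF and 0.0784% in male CD163KO MONO. The summed markers of border-associated macrophages were at 0.727% to 7.91% (median 3.51%), those of monocytes at 0.363% to 8.83% (median 4.61%) and those of neutrophils at 1.09% to 5.31% (median 2.04%). In microglia the first 2 sums, with medians of 95.2 and 35.7 FPKM, rested largely on Stab1 and Chil3, named after their values were seen. Stab1 had medians of 59.4 FPKM in microglia and 73.4 in macrophages, and Chil3 of 26.5 and 555. Every other border-associated marker had a median of 10.1 FPKM or less in microglia. The 2 conditions with the lowest percent of Cybb were also those with the lowest percent of border-associated macrophage and monocyte markers, and female WT PFF was highest in Cybb and in all 3 lists. Of the 8 markers of border-associated macrophages 7 or 8 were above 0 in each microglia library, and of the 6 monocyte markers 4 to 6. The same percent was 60.2% to 132% for Cyba (median 86.7%), 36.7% to 1332% for Ncf1 (median 516%), 10.97% to 175% for Ncf4 (median 119%) and 6.85% to 151% for Rac2 (median 40.3%). The part of cells from the other gate in the microglial Cybb was not tested.

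**Figure D4:**
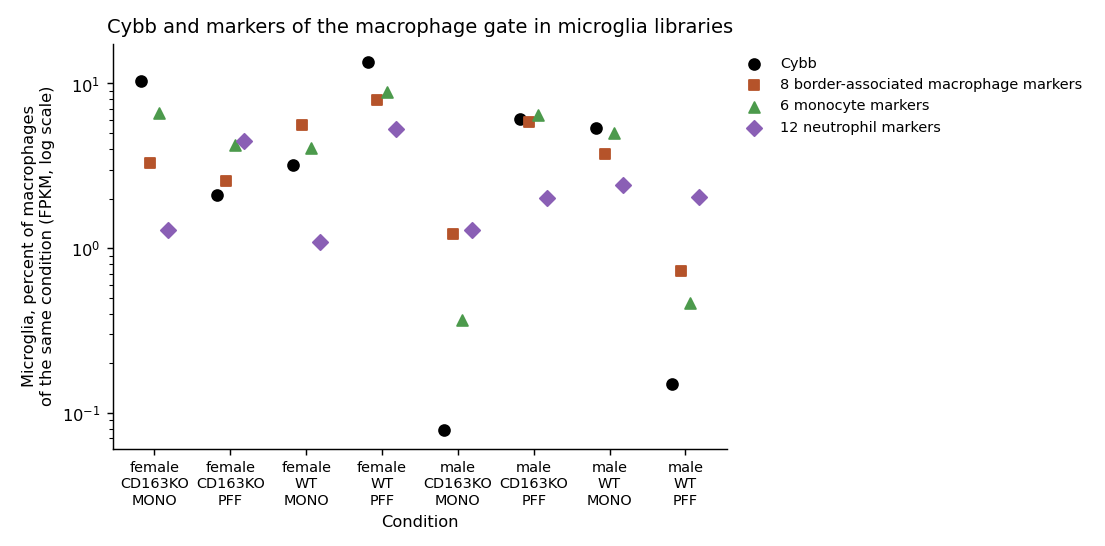
Level in the microglia library as a percent of the macrophage library of the same condition (FPKM, log axis) for Cybb and for the summed markers of border-associated macrophages, monocytes and neutrophils, by condition. Cybb runs from 0.0784% to 13.4% and is lowest, with the monocyte and border-associated macrophage markers, in male CD163KO MONO and male WT PFF.

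PFF were compared with MONO, CD163KO with WT and males with females within each population, in additive fits of 7 libraries with 3 residual degrees of freedom. None of the 5 genes was called in any of the 6 comparisons, by edgeR, DESeq2 or limma. The background was as low, with 0% of the 11985 macrophage genes called for PFF, 0.00834% for CD163KO (Cd163 alone, named after its value was seen) and 0% for sex, and 0% of the 12736 microglia genes in each of the 3. At an unadjusted p under 0.05, 80 to 154 genes stood in the macrophage comparisons and 168 to 769 in those of microglia, and DESeq2 called 2 to 25 genes.

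In macrophages the estimates for PFF ran from -0.34 (Rac2) to 0.55 (Cybb) on the log2 scale, with 95% intervals that reached from -1.35 to 1.37. As deposited, macrophage Cybb was higher with PFF in CD163KO females (92.7 against 62.0 FPKM) and WT males (361 against 116) and lower in WT females (58.2 against 103). On the TMM scale Cybb was higher with PFF in 3 of 3 pairs, Rac2 in 0 of 3 and each of the other 3 genes in 1 of 3. As deposited, Cyba was higher with PFF in 0 of 3 pairs and Ncf1, Ncf4 and Rac2 each in 1 of 3. In the male CD163KO pair, which holds the excluded MONO library, Cybb and Rac2 lay the other way on the TMM scale, with log2 differences of -0.24 and 0.52. Between genotypes, macrophage Cybb was higher in CD163KO in 0 of 3 pairs on the TMM scale and in 1 of 3 as deposited. Each of the other genes was higher in CD163KO in 1 or 2 of 3 on the TMM scale. In the male MONO pair, which holds the excluded library, Cybb was higher in CD163KO by 1.06. For CD163KO against WT the estimates were -0.21 to 0.33, with intervals from -1.23 to 1.51, and for males against females -0.30 to 0.47, with intervals from -1.49 to 1.58. Differences of 2-fold or more were thus within the intervals of some gene in each comparison.

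In microglia, Rac2 was the one gene of the 5 with an unadjusted p under 0.05. It had 36.3 FPKM in female CD163KO MONO, 58.8 in female WT MONO and 24.9 in male WT MONO, and 58.6 in female CD163KO PFF, 68.4 in female WT PFF, 68.9 in male CD163KO PFF and 14.8 in male WT PFF. On the TMM scale PFF was above MONO in the 3 pairs matched by label for sex and genotype, and as deposited in 2 of 3, male WT being the exception. The MONO library of the CD163KO female pair is the one with 799 Y-linked counts, within the 434 to 1997 of the microglia libraries labelled male, so that this pair is not shown to be matched for sex. The fitted difference was 0.93 (SE 0.351, 95% interval 0.15 to 1.70, edgeR adjusted p = 0.777), and it was 0.40 (adjusted p = 1) with totals alone, 0.89 (95% interval -0.12 to 1.89, adjusted p = 0.92) without female CD163KO MONO and 0.62 (adjusted p = 1) without female CD163KO MONO and male WT PFF. The other 4 genes were at -0.14 to 0.64, with intervals from -1.42 to 2.22. For CD163KO against WT the 5 estimates were -0.34 to 0.05 and for males against females -0.27 to 0.92, with the library that holds Y-linked counts among the females. Without it they were -1.13 to -0.12 and -0.28 to 0.89, and none was called.

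**Figure D5:**
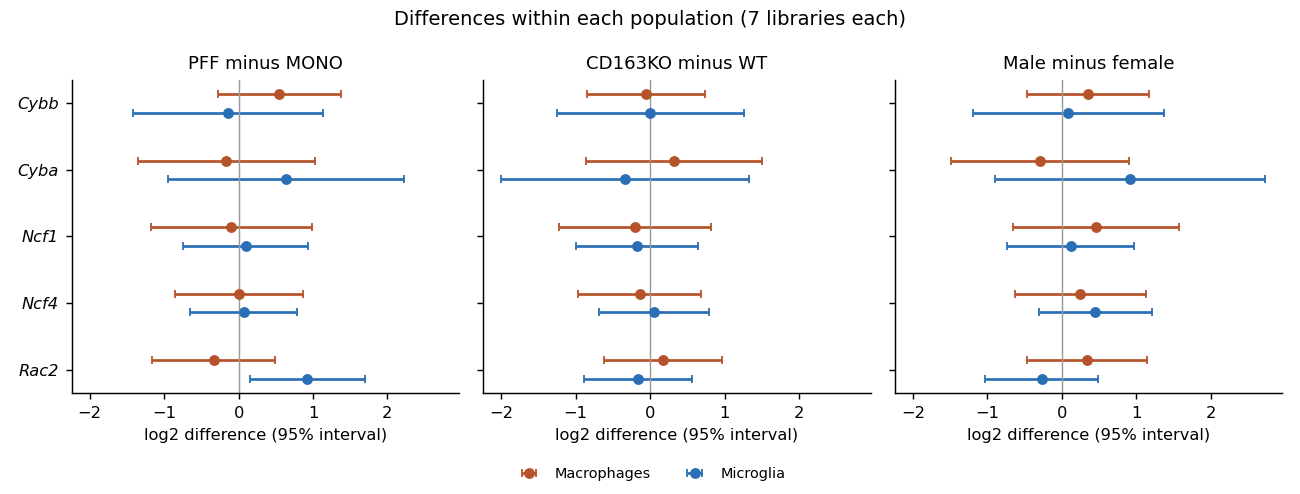
Log2 differences with 95% intervals from edgeR for PFF minus MONO, CD163KO minus WT and male minus female, in macrophages and in microglia (7 libraries each). All intervals cover 0 except that of Rac2 for PFF in microglia, 0.15 to 1.70, which had an adjusted p of 0.777.

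Whether the effects differed between populations or genotypes was tested by interaction terms. No oxidase gene was called in any, where 0% of all genes were called for the difference between macrophages and microglia in the effect of PFF, 0% for that of CD163KO, 0% for the difference between genotypes in the effect of PFF in macrophages and 0.0351% for the same in microglia. The last are 5 genes, among them Ddx3y, Eif2s3y, Gm20831 and Hes1, named after their values were seen, and Ddx3y and Eif2s3y are Y-linked genes in a fit that holds the library labelled female with Y-linked counts. At an unadjusted p under 0.05 these comparisons held 122, 84, 59 and 683 genes, and DESeq2 called 40, 42, 17 and 32. The effect of PFF on Rac2 differed by -1.29 between macrophages and microglia (95% interval -2.35 to -0.24, edgeR adjusted p = 1), also with an unadjusted p under 0.05, and the other members had unadjusted p of 0.18 or more in all 4. Cyba was called for the difference between genotypes in microglia (-2.54) once female WT PFF was left out. That fit held 1 WT PFF library, the male one that stood apart. The share of all genes called in it is not given here, so the call has no background beside it.

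The other catalytic oxidases of the family were scarce or not listed. Of 13 further genes of the family and its partners, 6 passed the filter on low counts, and 2 of these were called, both higher in macrophages with TMM, where 11.6% of all genes were, and 1 of them with totals alone. Rac1, the more widely expressed GTPase, was higher in macrophages by 3.84 (adjusted p = 0.0171) and by 1.99 with totals alone, at 113 to 1327 FPKM against 155 to 816. Cybc1, a chaperone of the membrane core, was at 15.9 to 95.3 FPKM in macrophages and 20.6 to 126 in microglia and was not called (-0.07, adjusted p = 0.855). Nox1, Nox4 and Noxa1 reached at most 0.19 FPKM in any library, and Nox3 and Duox2 were listed in none. Noxo1, the organizer of Nox1, was at 1.62 to 11.6 FPKM in microglia and 0 to 2.47 in macrophages and was not called with TMM (-3.00, adjusted p = 0.144).

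Of 25 genes that signal to the oxidase, 6 were called higher in macrophages and 8 lower, around a median of -0.15. Of all genes 11.6% were called higher and 6.64% lower, around a median of -0.37, and the counts of this list and of those that follow stand beside these. C5ar1, the receptor for complement C5a, differed by 2.30 and Fpr1, a receptor for formyl peptides, by 10.01, and the Src family kinase gene Fgr by 4.58. Itgam, which encodes the CD11b used in both gates, differed by -1.79, at 5.98 to 99.2 FPKM in macrophages and 53.1 to 185 in microglia. Each of these 4 kept its direction with totals alone. Of 9 genes that handle superoxide or the charge the oxidase moves, 4 were called higher and 1 lower, around a median of 1.59 (all genes -0.37). Mpo, the myeloperoxidase of neutrophil granules, was at 3.40 to 256 FPKM in macrophages and 0 to 6.76 in microglia, and Hvcn1, the proton channel that balances the charge of the electrons, differed by -1.63 (adjusted p = 0.000656), at 3.50 to 49.8 FPKM in macrophages and 18.0 to 110.3 in microglia. Prdx6 (2.32) and Sod1 (1.59) were called with TMM and not with totals alone (0.85 and 0.15).

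Of 10 myeloid transcription factors, 4 were called higher in macrophages and 2 lower, around a median of 1.22, where 11.6% and 6.64% of all genes were called around a median of -0.37. Cebpa (-1.76, adjusted p = 0.00116) and Irf8 (-1.03, adjusted p = 0.00291), a partner of PU.1, were lower in macrophages under both scalings, and Cebpb was higher (6.43, adjusted p = 0.00238). Spi1, which encodes PU.1 and was named after its value was seen, was at 142 to 355 FPKM in macrophages and 91.3 to 359 in microglia, higher by 1.35 with TMM (adjusted p = 0.00427) and at -0.07 with totals alone (adjusted p = 0.904). No gene of these 4 lists was called in any comparison of treatment, genotype or sex.

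The genes whose pattern over the 16 libraries was most like that of each member were found after the mean of each population was subtracted, among 3916 genes that reached 10 FPKM in 8 libraries or more. For Cybb these were Sppl2a (Pearson's r = 0.85), Ppp3r1 (0.82) and Klf6 (0.81). For Cyba they were Ubb (0.97), Tmsb4x (0.97) and Exosc2 (0.96), for Ncf1 Slfn1 (0.93), Slc16a6 (0.88) and Eif2ak1 (0.88), for Ncf4 Arl4c (0.85), Skil (0.79) and Gon7 (0.79), and for Rac2 Aldh3b1 (0.85), Pmf1 (0.80) and Ctc1 (0.78). Among the members themselves, which were not picked by r, Ncf1 and Ncf4 had r = 0.62, Cybb and Cyba r = -0.70, and the other 8 pairs lay between -0.34 and 0.26. These correlations on the TMM scale share the libraries and the 2 conditions that stood apart, and they are descriptions without a test. They also share the TMM factors, which ran from 0.381 to 1.80. As deposited, Cyba varied little, with an SD on log2(FPKM + 1) of 0.32 in macrophages and 0.28 in microglia. The part of the factors in its correlations, that with Cybb included, was not tested.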

How the data were processed

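RNA was sequenced by SMART-seq2, and per the labels and methods the authors mapped clean reads with Bowtie2 to mm10 and estimated expression with RSEM (versions not given in the sources used here). The deposited tables give estimated counts per RefSeq transcript, without normalization, and FPKM made by the authors, scaled to transcript length and library. A transcript missing from a table was taken as 0. Transcripts were summed per symbol (27627 of 27787 matched, RefSeq GRCm38.p6), and expected counts were rounded. Main tests used edgeR 4.0.16 (glmQLFTest, TMM, filterByExpr) in R 4.3.3, called at an adjusted p of at most 0.05. Alternatives were DESeq2 1.42.0 and its size factors, library totals alone, no filter, limma 3.58.1 on log2(FPKM + 1) and log2(FPKM + 0.1), the 2 excluded libraries, and leaving out each condition. Fits were tested on simulated data, where most genes given a change went uncalled in each of the comparisons simulated (the populations, and PFF within each), so a missing call is no sign of no change. Exact tests used scipy 1.17.1, unadjusted, since adjusting over the 5 members was dropped. PCR copies are counted as reads. The members and lists were chosen with earlier results of these data known. Named genes are the members, up to 4 called genes per list by p, all detected oxidase family genes, and the 3 most like each member, and a few such genes are left out here. With 1 library per condition, p-values measure spread over pooled conditions.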

Additional observations from a re-analysis of the deposited data

How the results depend on the processing

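The differences between macrophages and microglia kept their sign for all 5 genes under all 16 alternatives. All 5 genes were called in the main fit, and 3 with library totals alone, 3 with limma on log2(FPKM + 1), 3 with limma on log2(FPKM + 0.1), 4 with the libraries of CD163KO males given MONO added (Cyba lost, adjusted p = 0.103), 4 without the block of condition (Ncf1 lost, adjusted p = 0.0787), and 3 to 5 when each condition was left out. Cybb and Rac2 were called throughout. The main fit called 18.2% of all genes. The shares under the alternatives are not given here, so these counts have no background beside them. Single-gene sign flips passed for 2 genes (of all genes 52.2%), for 2 with pseudocounts of 0.1 and 5 (52.0% and 52.4%), for 3 (Cybb, Ncf1 and Rac2) over 8 pairs with CD163KO males given MONO (44.7%), for 5 with FPKM divided by TMM factors (48.7%), and for 1 to 2 when each condition was left out (34.3% to 69.7%). In the other 10 comparisons, 180 of 730 values under the alternatives had the opposite sign to the main estimate and 1 was called, so that the members called were 0 to 1 for the difference between genotypes in the effect of PFF in microglia when each condition was left out; the cause was not tested. That comparison could not be fitted in either population without female CD163KO MONO. The labels give no replicate numbers, and the main fit paired the libraries of a condition by the block. In female CD163KO MONO the macrophage library held 0 Y-linked counts and the microglia library 799. This pair, which enters the tests between populations and the ratios, is therefore not shown to be matched for sex. Depth limits microglial Cybb most, at 25 to 592 counts per library.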

Other observations

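Rac1 took opposite extremes in the 2 conditions that stood apart. In macrophages it was at 838 to 1327 FPKM in 6 conditions and at 113 in male WT PFF and 195 in male CD163KO MONO. In microglia it was at 155 to 237 FPKM in 6 conditions and at 816 and 342 in these. As deposited, Rac2 had its highest macrophage values (217 and 214 FPKM) in these conditions. On the TMM scale it was at 149.5 and 148 there, and 4 of the other 6 macrophage libraries were higher, at 161 to 212. The FPKM of Rac2 divided by that of Rac1 was therefore above 1 in these 2 macrophage libraries and at most 0.192 in the other 6.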
